A study of Tegula funebralis with 16 samples.

Results

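Heated snails of the black turban snail Chlorostoma (Tegula) funebralis from southern California were compared with heated snails from northern California by RNA sequencing of whole animals. The southern libraries were 2 heated ones from Aliso Beach and 2 from La Jolla, and the northern libraries were 2 heated ones from Slide Ranch and 2 from Pigeon Point. They were chosen by the site and treatment in the sample labels and make up 8 of the 16 libraries of the series, 4 from each region. Heated animals were held in air that was warmed from 15 °C in steps of 3 °C up to 34 °C, in trials of 5.5 hours with the ramp included. The other 8 libraries, 2 per site, held controls that spent the same 5.5 hours in air at 15 °C. They did not enter the regional difference of heated libraries. They entered the estimate of spread, the filter on low counts, the choice of some named contigs and comparisons of the 2 treatments. The labels give no sex, size or reproductive state nor the number of animals in a library. Each region is represented by 2 sites, and a difference set by region cannot be told apart from one set by the particular sites. The p-values cover only the spread among these libraries, which may be technical.

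Heat unfolds proteins, and cells answer by making heat shock proteins, chaperones of the HSP70, HSP90 and small HSP families that hold or refold damaged proteins. Animals also carry transcripts of growing tissue: before a cell copies its genome, origin recognition complexes load a ring of MCM proteins, which becomes the replicative helicase once CDC45 and the GINS complex join it. In egg-laying animals the ovary combines dividing germ cells with stored yolk, whose precursor is vitellogenin, and with envelope proteins that carry zona pellucida domains.

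The deposited table held 15903 contigs, which are assembled transcripts or parts of them. The test took in the 14444 contigs whose normalised read counts averaged 10 or more over all 16 libraries. The heated libraries held 18484362 to 26103215 reads. La Jolla heat 1 and Pigeon Point heat 1, 1 library of each region, stood apart, as did the first control libraries of the same 2 sites. Contig SR_contig_83, named senescence-associated protein, took 39.2% of the reads of La Jolla heat 1 and 17.3% of those of Pigeon Point heat 1, against 2.30% to 3.88% in the other 6 heated libraries. On the first principal component of the 8 heated libraries, with 56.6% of the variance, La Jolla heat 1 scored 117.9 and Pigeon Point heat 1 scored 101, and the other 6 lay between -45.2 and -31.3. The second component, with 15.3% of the variance, ordered the libraries by region, from -39.9 to -17.9 in the southern and from 15.6 to 40.5 in the northern libraries. Counts of contigs are therefore given for all 16 libraries, for a fit with a term for the 4 libraries that stand apart, and for the 12 libraries without them. In the last, the La Jolla and Pigeon Point groups hold 1 library each, which is assumed to vary like the other groups.

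**Figure D1:**
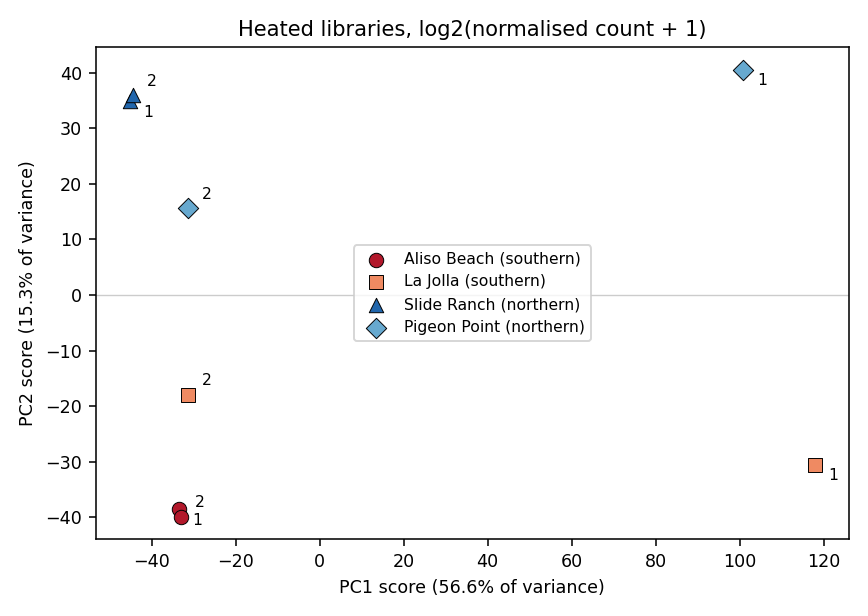
Scores of the 8 heated libraries on the first and second principal components of log2(normalised count + 1), in log2 units, with colour and symbol for the site and the replicate number beside each point. The first component sets La Jolla heat 1 and Pigeon Point heat 1 apart from the other 6 libraries, and the second places the 4 southern libraries below 0 and the 4 northern ones above 0.

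Of 51 contigs of DNA replication and cell cycle genes, 10 were called higher in heated southern snails and 0 lower. The count was 3 with site as a random effect and 1 with only the 8 heated libraries, where 15 and 5 of all 14444 tested contigs were higher. The yolk precursor vitellogenin was also called higher, with a log2 difference of 2.01, in the fit of all 16 libraries. Heated southern snails had less of a homolog of failed axon connections, of the protease meprin and of collagen alpha-1, with log2 differences of -2.79, -1.68 and -1.42. These 3 passed in 14, 6 and 12 of the 16 fits that left out 1 library. None of the 12 heat shock protein contigs passed the test over all libraries. Over all 16 libraries, 110 contigs were higher and 58 lower in heated southern libraries. The threshold was a Benjamini-Hochberg adjusted p under 0.05 in limma, and contigs past it are termed called. Contigs were named by the size of their difference and by the smallest p within each gene list, and the other called members of the replication list were added after their values were seen. The 168 called contigs were 1.16% of those tested, with 0.762% higher and 0.402% lower, and 2051 contigs (14.2%) had an unadjusted p under 0.05. With a term for the 4 libraries 1170 contigs (8.1%) were higher and 849 (5.88%) lower, which is 14% of those tested. In the 12 libraries 778 (5.39%) were higher and 576 (3.99%) lower, or 9.37%. Each of the 168 also passed with the term. That term left the regional log2 differences as they were and changed only their spread, so no sign could change. The 12 libraries are a part of the same 16, so neither fit is an independent check. In the 12 libraries the median log2 difference was 1.03 for the 110 higher contigs and -1.31 for the 58 lower ones, against 1.14 and -1.44 over 16. The count model edgeR, run on recovered reads, called 154 contigs (1.07%), 152 of them among the 168. DESeq2 called 790 (5.47%), with 167 of the 168. With site as a random effect, 22 (0.152%) were called, 15 higher and 7 lower. That fit used 1 correlation within sites for all contigs, so it does not measure how far the sites differ in a single contig. With only the 8 heated libraries 9 (0.0623%) were called. These 22 and these 9 were among the 168.

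Both sites of a region lay on the same side for most called contigs. The means of Aliso Beach and La Jolla were both above or both below those of Slide Ranch and Pigeon Point in 151 of the 168 (89.9%), in 100 of the 110 higher and 51 of the 58 lower contigs, against 4672 of all 14444 (32.3%). The choice of contigs by their regional average favours such agreement, so the share describes the called contigs and tests nothing. In 133 of the 168 the 4 southern libraries did not overlap with the 4 northern ones, against 1070 (7.41%) of all tested contigs. With a term for the 4 libraries, 1620 of 2019 called contigs (80.2%) had both sites of each region on the same side. The choice of contigs favours the lack of overlap and this share in the same way, so they too only describe the called contigs.

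The count depended on single libraries and sites. With the second heated library of Aliso Beach left out, 11 contigs were higher and 12 lower, and with the first left out 14 and 11. Omitting the first heated library of La Jolla gave 31 and 27, and omitting the second 172 and 179. For Slide Ranch the counts were 15 and 9 without heat 1, and 14 and 11 without heat 2. For Pigeon Point they were 22 and 16 without heat 1. Without either control library of Aliso Beach they were 29 and 16, and without either of Slide Ranch 41 and 19. Of the 168 contigs, 19 were called in all 16 of the fits that left out 1 library, and 2 in none of them. With a whole site left out, 2 contigs were higher and 4 lower without Aliso Beach, 61 and 77 without La Jolla, 6 and 3 without Slide Ranch, and 243 and 79 without Pigeon Point.

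Subunits of the replicative helicase were higher. MCM3 (SR_contig_137240), one of the subunits of its ring, had normalised read counts of 711 and 619.5 at Aliso Beach and 945 and 878 at La Jolla, against 98.3 and 137 at Slide Ranch and 435 and 394 at Pigeon Point. All 4 southern libraries exceeded all 4 northern ones, and Slide Ranch had the lowest values. The log2 difference, southern minus northern on the log2(normalised count + 1) scale, was 1.82 ± 0.23 (SE), with an adjusted p = 0.00459 in limma. MCM5 (SR_contig_26730) had 1281 and 1269 at Aliso Beach and 2103 and 1493 at La Jolla, against 333 and 330.3 at Slide Ranch and 1018 and 822 at Pigeon Point. It showed the same order of sites, without overlap between the regions, and a log2 difference of 1.45 ± 0.18 (SE, limma adjusted p = 0.00459). CDC45 (SR_contig_38225), which joins the MCM ring to form the active helicase, had 403 and 390.1 at Aliso Beach and 617 and 524 at La Jolla, against 104 and 111 at Slide Ranch and 191 and 242 at Pigeon Point. No southern value fell among the northern ones, and the log2 difference was 1.64 ± 0.18 (SE, limma adjusted p = 0.00307). MCM3, MCM5 and CDC45 were called in all 16 fits that left out 1 library. With site as a random effect CDC45 kept its call (limma adjusted p = 0.0487), and MCM3 and MCM5 lost theirs (limma adjusted p = 0.125 and 0.11). MCM2, described next, was called in 14 of the 16 fits that left out 1 library, and replication factor C subunit 4 in 13. The B subunit of DNA polymerase alpha, the large subunit of ribonucleotide reductase and cyclin B were called in 6 each.

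MCM2 (SR_contig_28663) was even across the sites of each region, with 1791 and 1962 at Aliso Beach and 1818 and 1999 at La Jolla, against 818 and 762 at Slide Ranch and 849 and 1008 at Pigeon Point. Its libraries did not overlap between regions, and its log2 difference was 1.14 ± 0.15 (SE, limma adjusted p = 0.00795). MCM7 (SR_contig_11576) had 2616 and 2636 at Aliso Beach and 2380.2 and 3285 at La Jolla, against 1259.5 and 1132 at Slide Ranch and 1585 and 2212 at Pigeon Point, also without overlap. Its log2 difference was 0.86 ± 0.24 (SE), which missed the threshold over 16 libraries (limma adjusted p = 0.112) and passed with the term and in the 12 libraries (limma adjusted p = 0.00104 and 0.00737). The remaining MCM contigs, named here with MCM7 for completeness of the family after their values were seen, overlapped between regions. MCM6 (SR_contig_20491) ranged over 793 to 1357 in heated southern and 476 to 1152 in heated northern libraries, with Pigeon Point heat 1 among the southern values, and its log2 difference was 0.48 ± 0.27 (SE, limma adjusted p = 0.477, or 0.0426 with the term). MCM4 (SR_contig_9680_C3.1) had 166 and 143 at Aliso Beach, but 18.5 and 78.6 at La Jolla, against 36.7 to 68.6 in the northern libraries. Its log2 difference was 0.78 ± 0.61 (SE, limma adjusted p = 0.659), and in the 12 libraries it was 1.07 (limma adjusted p = 0.0136). MCM8 (SR_contig_98717), a relative outside the replicative ring, had a log2 difference of 1.03 ± 0.40 (SE, limma adjusted p = 0.26, or 0.0165 with the term). A contig of the GINS subunit PSF3 (SR_contig_3880_C3.1), likewise chosen, had a log2 difference of -0.42 ± 0.41 (SE, limma adjusted p = 0.751) and its lowest value of 20.5 in La Jolla heat 1.

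Parts of the machinery behind the helicase were higher as well. Replication factor C subunit 4 (SR_contig_36163), part of the loader that places the sliding clamp on DNA, had 391 and 506 at Aliso Beach and 566 and 382 at La Jolla, against 144 and 129 at Slide Ranch and 206 and 278 at Pigeon Point. Again all southern values lay above the northern ones, with a log2 difference of 1.33 ± 0.19 (SE, limma adjusted p = 0.0116). The B subunit of DNA polymerase alpha (SR_contig_88646), which starts new strands, had a log2 difference of 1.05 ± 0.20 (SE, limma adjusted p = 0.0345), and the large subunit of ribonucleotide reductase (SR_contig_18734), which supplies deoxyribonucleotides, one of 0.83 ± 0.16 (SE, limma adjusted p = 0.039). Neither overlapped between regions, with the polymerase subunit at 575 to 714 in heated southern and 259 to 468 in heated northern libraries and the reductase at 584 to 924 in heated southern and 386 to 492 in heated northern libraries. Origin recognition complex subunits 4 (SR_contig_34816) and 3 (SR_contig_68498), chosen after their values were seen, were called with log2 differences of 1.22 and 1.08 (limma adjusted p = 0.0345 and 0.0451), and subunit 3 overlapped between regions by La Jolla heat 1 at 301 and Pigeon Point heat 2 at 306. PCNA (SR_contig_28245), the sliding clamp, ranged over 2211 to 3539 in heated southern and 1298 to 2379 in heated northern libraries, with a log2 difference of 0.71 ± 0.19 (SE) that passed with the term for the 4 libraries (limma adjusted p = 0.00209) and not over 16 (limma adjusted p = 0.109).

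Contigs of mitotic genes were called higher too. Cyclin B (SR_contig_11053), the partner of the mitotic kinase CDK1, had 3796 and 4114 at Aliso Beach and 3436 and 3734 at La Jolla, against 1508 and 1726 at Slide Ranch and 1394 and 2435 at Pigeon Point. The 4 southern libraries were close together and above all northern ones, with a log2 difference of 1.13 ± 0.21 (SE, limma adjusted p = 0.0345). The mitotic kinases PLK1 (SR_contig_3566) and aurora A (SR_contig_16253), both chosen after their values were seen, were at 1939 to 2406 in heated southern and 967 to 1346 in heated northern libraries, and at 2428 to 4920.4 in heated southern and 674 to 1835 in heated northern libraries. Neither overlapped between regions, and their log2 differences were 1.02 ± 0.15 (SE, limma adjusted p = 0.0129) and 1.47 ± 0.23 (SE, limma adjusted p = 0.0212). The spindle checkpoint protein MAD2 (SR_contig_7367, also chosen so) was at 635 to 1406 in heated southern and 188 to 623 in heated northern libraries, with a log2 difference of 1.31 ± 0.23 (SE, limma adjusted p = 0.0315). CDK1 itself (SR_contig_113_C3.1), chosen after its values were seen like the next 3 contigs, overlapped between regions, with La Jolla heat 1 at 621 and Pigeon Point heat 2 at 632, and its log2 difference was 1.17 ± 0.32 (SE). It missed the threshold over 16 libraries (limma adjusted p = 0.113) and passed with the term and in the 12 libraries (limma adjusted p = 0.000673 and 0.00387). A second cyclin B contig (SR_contig_877), cyclin A (SR_contig_715_C3.1) and geminin (SR_contig_1592), an inhibitor of origin loading, had log2 differences of 0.69, 0.68 and 0.69 and passed with the term but not in the other 2 fits (limma adjusted p = 0.449, 0.153 and 0.241 over 16 libraries, 0.0154, 0.0217 and 0.0448 with the term, and 0.0901, 0.0509 and 0.107 in the 12).

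**Figure D2:**
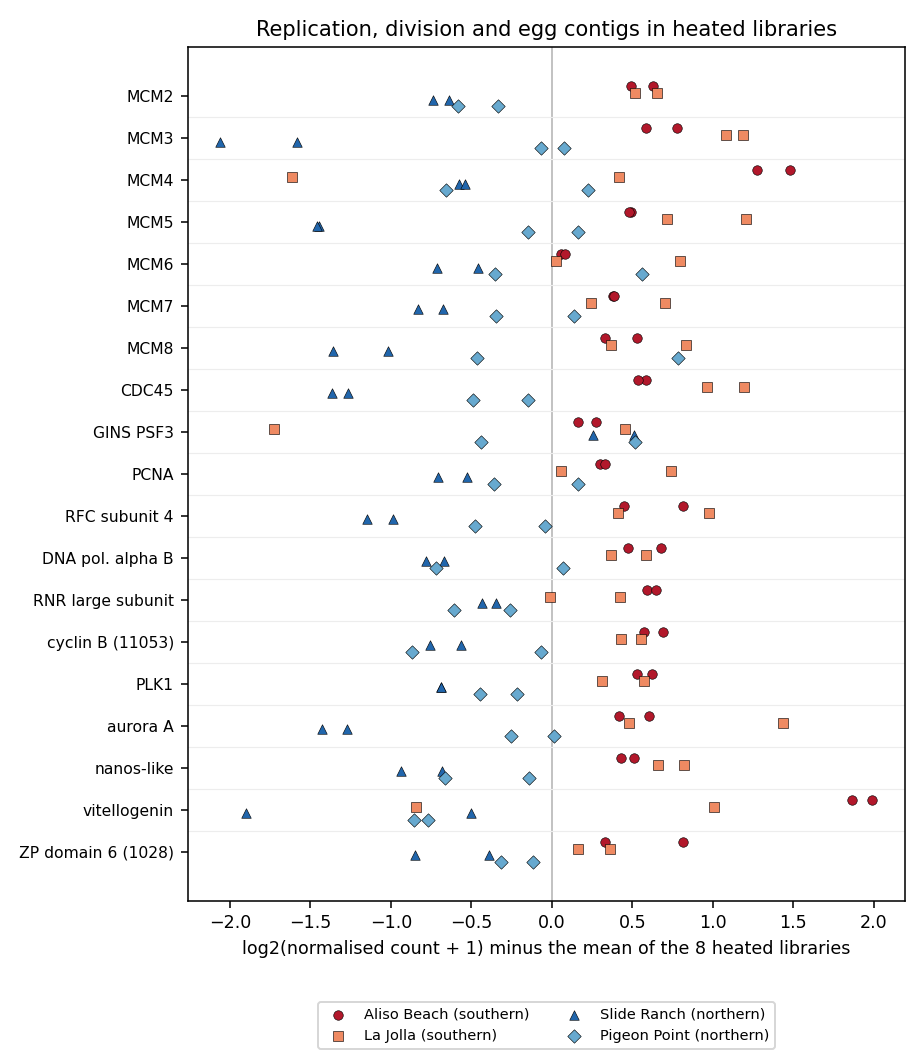
Each row shows 1 contig, with log2(normalised count + 1) of each heated library minus the mean of the 8 heated libraries on the horizontal axis and 1 point per library, southern sites in red and orange, northern sites in dark and light blue. The southern points of MCM2, MCM3, MCM5 and CDC45 lie to the right of all northern points, while La Jolla heat 1 lies far to the left for MCM4 and GINS PSF3 and among the northern points for vitellogenin.

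Of the 51 tested contigs in the list of DNA replication and cell cycle genes, 10 were higher and 0 lower over 16 libraries, where 0.762% of all tested contigs were higher. The median log2 difference of the list was 0.71, against -0.03 over all tested contigs, and 43 of the 51 lay above 0, as did 6782 (47.0%) of all. In 20 of the 51 all 4 southern libraries exceeded all 4 northern ones, and in 0 the reverse, against 601 (4.16%) and 469 (3.25%) of all tested contigs. With the term for the 4 libraries 31 were higher and 0 lower, and in the 12 libraries 24 and 0, where 8.1% and 5.39% of all tested contigs were higher. With site as a random effect 3 were higher, namely MCM2, CDC45 and replication factor C subunit 4, and with only the 8 heated libraries 1, MCM3. In these fits 15 and 5 of all 14444 tested contigs were higher. Counts over all tested contigs with 1 library left out are given above. The count of 10 was 3 without the second heated library of Aliso Beach or of Slide Ranch, and 4 without Slide Ranch heat 1. It was 5 without Aliso Beach heat 1, Pigeon Point heat 1 or any single control library of Aliso Beach or Slide Ranch, and 6 without La Jolla heat 1. The other 2 called members not described above were CDCA7 (SR_contig_1745), a transcription regulator of the cell cycle, and CKS1 (SR_contig_4138), a small binding partner of cyclin-dependent kinases, with log2 differences of 1.04 ± 0.20 and 0.94 ± 0.19 (SE, limma adjusted p = 0.0375 and 0.0427). The origin recognition subunits, PLK1, aurora A and MAD2 lie outside the list and its count of 10, and were chosen after their values were seen. The count was 0 when Aliso Beach or Slide Ranch was left out as a site, with list medians of 0.65 and 0.53, and 15 without Pigeon Point.

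Contigs of 2 egg proteins were called higher. Vitellogenin (SR_contig_446) had 57229.8 and 62423 at Aliso Beach and 8739.9 and 31548 at La Jolla, against 11078 and 4209 at Slide Ranch and 9209 and 8660.2 at Pigeon Point. Both Aliso Beach libraries and La Jolla heat 2 were above all northern libraries, and La Jolla heat 1 lay among them. The log2 difference was 2.01 ± 0.41 (SE, limma adjusted p = 0.0441). It passed in 4 of the 16 fits that left out 1 library, those without either heated La Jolla library or either Pigeon Point control, with limma adjusted p from 0.0217 to 0.187 over the 16. In the 12 libraries it was 2.50 (limma adjusted p = 0.00382). A vitelline envelope protein with zona pellucida domain 6 (SR_contig_1028_C3.2) was at 37587 to 59084 in heated southern and 18625 to 30932 in heated northern libraries, without overlap, and had a log2 difference of 0.84 ± 0.17 (SE, limma adjusted p = 0.0455). These were the 2 called members of 34 ovary and egg markers, where 0.762% of all tested contigs were higher. The median log2 difference of the markers was 0.39, and 29 of the 34 lay above 0, as did 47.0% of all tested contigs. With the term for the 4 libraries 10 of the 34 were higher and 0 lower, and in the 12 libraries 4 and 0, against 8.1% and 5.39% higher of all. None of the 34 was called with site as a random effect, with only the 8 heated libraries or without the filter on low counts. Nor was any called in 12 of the 16 fits that left out 1 library, and the other 4 called 1 to 3. The contig of the germ line regulator nanos (SR_contig_967), chosen after its values were seen, was at 2215 to 2901 in heated southern and 858 to 1485 in heated northern libraries, without overlap, with a log2 difference of 1.21 ± 0.22 (SE, limma adjusted p = 0.0338).

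The summed normalised read count of the ovary and egg markers ran over 439088 to 705427 in heated southern and 294768 to 596578 in heated northern libraries, so the regions overlapped in this sum, with Pigeon Point heat 1 at 596578. Testis and sperm markers summed to 40024 to 54914 in heated southern and 40424 to 46256 in heated northern libraries, and 0 of 74 were called. Muscle markers summed to 145500 to 234901 in heated southern and 195814 to 226874 in heated northern libraries, with 0 of 24 called. Of all tested contigs, 1.16% were called in either direction over 16 libraries. Blood markers summed to 615882 in La Jolla heat 1 and 622732 in Pigeon Point heat 1, against 192848 to 250291 in the other 6 heated libraries. In RNA from whole animals, fewer cells of a type and less RNA per cell cannot be told apart, and the part of the egg and ovary transcripts in the replication result was not tested.

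Heat shock proteins, the main products of the heat response, did not pass the test over 16 libraries. HSP90 (SR_contig_806_C3.1) had 73986 and 76829 at Aliso Beach and 75667 and 70999 at La Jolla, against 112778 and 117654 at Slide Ranch and 118805 and 88738 at Pigeon Point. All 4 southern libraries were below all 4 northern ones, and the log2 difference was -0.55 ± 0.19 (SE). It missed the threshold over 16 libraries (limma adjusted p = 0.192), passed with the term for the 4 libraries (limma adjusted p = 0.0151), and was -0.47 in the 12 libraries (limma adjusted p = 0.0799). An HSP70 contig (SR_contig_5144) had 53997 and 53929.8 at Aliso Beach and 64541 and 62299.9 at La Jolla, against 82036 and 84336 at Slide Ranch and 82651 and 65095 at Pigeon Point. Its southern libraries were also all below the northern ones, by a small margin to Pigeon Point heat 2, with a log2 difference of -0.42 ± 0.17 (SE, limma adjusted p = 0.285, or 0.0328 with the term).

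The other heat shock contigs overlapped between regions. The small heat shock protein 26 (SR_contig_5896_C3.1) had 19068 and 16195 at Aliso Beach and 52088 and 66595 at La Jolla, against 95610.1 and 92819 at Slide Ranch and 63156 and 72712 at Pigeon Point. Aliso Beach was far below the other 3 sites, and La Jolla heat 2 lay among the northern libraries. Its log2 difference was -1.31 ± 0.47 (SE, limma adjusted p = 0.223), and in the 12 libraries it was -1.27 (limma adjusted p = 0.00177). The HSP70 contigs SR_contig_18771_C3.1, SR_contig_12347_C3.1 and SR_contig_525 had log2 differences of -0.33, -0.51 and -0.14, and none passed over 16 libraries (limma adjusted p = 0.825, 0.751 and 0.881), although SR_contig_12347_C3.1 passed in the 12 (limma adjusted p = 0.0393). In each of these 3 contigs both Aliso Beach libraries were below all northern libraries, while La Jolla heat 1 was the highest southern value. The contig named heat shock 70 kDa protein 14 (SR_contig_851) was the single one of the 12 heat shock contigs above 0, at 0.47 ± 0.27 (SE, limma adjusted p = 0.499, or 0.0229 with the term).

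As lists, 0 of 6 HSP70, 0 of 1 HSP90, 0 of 3 small heat shock and 0 of 2 other heat shock contigs were called over 16 libraries. Of all tested contigs, 0.762% were higher and 0.402% lower in that fit, so 0 calls in lists this small say little. Their median log2 differences were -0.38, -0.55, -0.40 and -0.40, and 11 of the 12 contigs lay below 0, where 6782 (47.0%) of all tested contigs lay above 0. The 2 other heat shock contigs, SR_contig_18769_C3.1 and SR_contig_31099, had a median of -0.32 in the 12 libraries and of 0.33 in controls. SR_contig_18769_C3.1 is named again below, in the test of the heated difference minus the control difference. These 2 contigs were also summed. Their normalised read counts came to 132342 to 148812 in heated southern and 146551 to 252455 in heated northern libraries. The regions overlapped by Pigeon Point heat 2 at 146551 and La Jolla heat 2 at 148812. Of 18 partners of HSP70 and HSP90, 1 was higher and 0 lower, with a median of -0.00339. The called partner was a DNAJC2 contig (SR_contig_32899), a co-chaperone that works at the ribosome, with 1176 and 1305 at Aliso Beach and 937 and 1101 at La Jolla, against 463 and 441 at Slide Ranch and 884 and 661 at Pigeon Point. All southern libraries were higher than all northern ones, and the log2 difference was 0.93 ± 0.15 (SE, limma adjusted p = 0.0244).

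**Figure D3:**
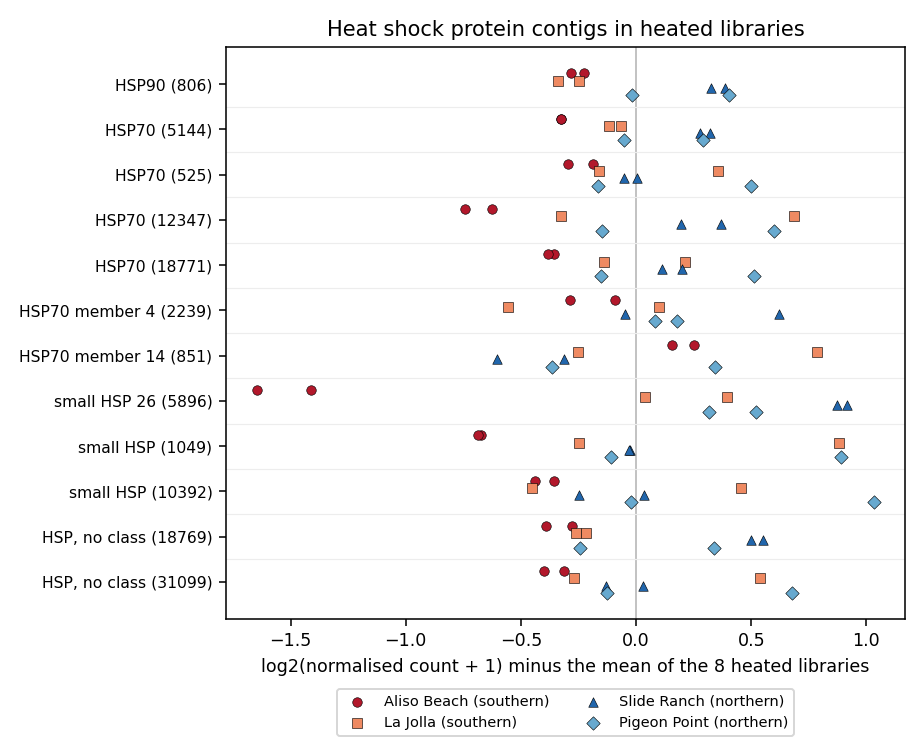
Each row shows 1 heat shock contig, with log2(normalised count + 1) of each heated library minus the mean of the 8 heated libraries and 1 point per library; southern sites are red and orange, northern sites dark and light blue. All southern points of HSP90 and of HSP70 contig SR_contig_5144 lie to the left of the northern ones, and the Aliso Beach points of small HSP 26 lie furthest to the left.

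The naming rule gave several enzymes among the largest positive differences. Sialate O-acetylesterase (SR_contig_17551), which removes acetyl groups from sialic acids, had 10125 and 6905 at Aliso Beach and 13923 and 7580.3 at La Jolla, against 2283 and 1473 at Slide Ranch and 3359.7 and 1757 at Pigeon Point. The lowest southern value exceeded the highest northern one, and the log2 difference of 2.13 ± 0.27 (SE, limma adjusted p = 0.00592) was called in all 16 fits that left out 1 library and with site as a random effect (limma adjusted p = 0.0135). The kinase NEK1 (SR_contig_8772) had 513 and 492 at Aliso Beach and 338 and 538 at La Jolla, against 71.7 and 76.0 at Slide Ranch and 114 and 179 at Pigeon Point, without overlap, and a log2 difference of 2.16 ± 0.34 (SE, limma adjusted p = 0.0212). Cytochrome P450 1A1 (SR_contig_236117), an enzyme that in vertebrates oxidises foreign chemicals, was at 90.2 to 142 in heated southern and 11.5 to 54.4 in heated northern libraries, with a log2 difference of 1.88 ± 0.32 (SE, limma adjusted p = 0.0286). A polyunsaturated fatty acid elongase (SR_contig_28447) was at 740.1 to 1198 in heated southern and 253 to 459.7 in heated northern libraries, with 1.35 ± 0.22 (SE, limma adjusted p = 0.0221). Among contigs with an informative name, a mean of at least 50 and both sites of a region on the same side, the largest difference was that of a contig like leukocyte cell-derived chemotaxin 1 (SR_contig_24499), with 686 and 384 at Aliso Beach and 894 and 529.9 at La Jolla, against 33.7 and 103 at Slide Ranch and 209 and 189 at Pigeon Point. The regions did not overlap, the log2 difference was 2.44 ± 0.44 (SE, limma adjusted p = 0.0311), and it passed in 9 of the 16 fits that left out 1 library.

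A contig named lee1p (SR_contig_1620), a glycoside hydrolase (SR_contig_175156), a TATDN2-like deoxyribonuclease (SR_contig_12036_C3.1), a luciferin 4-monooxygenase (SR_contig_115427) and a zinc finger contig (SR_contig_30828) had log2 differences of 1.97, 1.83, 1.82, 1.79 and 1.65, with limma adjusted p = 0.0311, 0.0484, 0.0354, 0.0451 and 0.0402. These 5 passed in 3 to 8 of the 16 fits that left out 1 library, and the monooxygenase was the only one of them to overlap between regions. Of contigs with no informative name, SR_contig_18249 had 1865 and 1382 at Aliso Beach and 2602 and 3689.8 at La Jolla, against 403 and 386 at Slide Ranch and 724 and 791 at Pigeon Point, a log2 difference of 2.03 ± 0.22 (SE, limma adjusted p = 0.00307) without overlap. SR_contig_91583 was at 236 to 369 in heated southern and 19.5 to 328 in heated northern libraries and overlapped by Pigeon Point heat 2, with 2.03 ± 0.33 (SE, limma adjusted p = 0.0234). In all, 109 of the 168 called contigs carried an informative name.

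Contigs called lower in heated southern snails included a meprin, a collagen alpha-1 and a Tc1 transposase. Among contigs with an informative name, a mean of at least 50 and both sites of a region on the same side, the largest negative difference was that of a homolog of failed axon connections (SR_contig_7850_C3.1), whose gene in Drosophila acts in axon development, with 15.9 and 28.4 at Aliso Beach and 28.7 and 21.0 at La Jolla, against 145 and 116 at Slide Ranch and 378 and 112 at Pigeon Point. All southern libraries were lower than all northern ones, and the log2 difference was -2.79 ± 0.39 (SE, limma adjusted p = 0.00919). Leukotriene B4 12-hydroxydehydrogenase (SR_contig_5197_C3.1), which inactivates eicosanoids, had 116 and 85.2 at Aliso Beach and 312 and 282 at La Jolla, against 647 and 599 at Slide Ranch and 665 and 598 at Pigeon Point. The regions did not overlap, Aliso Beach was the lowest site, and the log2 difference of -1.86 ± 0.21 (SE, limma adjusted p = 0.00307) was called in all 16 fits that left out 1 library, but not with site as a random effect (limma adjusted p = 0.131). Meprin A subunit beta (SR_contig_6538), a secreted or membrane-bound metalloprotease, had 1256 and 1518 at Aliso Beach and 2885 and 2139 at La Jolla, against 4845 and 5886 at Slide Ranch and 9530.0 and 4625 at Pigeon Point, without overlap, and a log2 difference of -1.68 ± 0.32 (SE, limma adjusted p = 0.0345). Meprin passed in 6 of the 16 fits that left out 1 library, and not with site as a random effect (limma adjusted p = 0.141). The failed axon connections homolog passed in 14 of the 16.

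Collagen alpha-1 (SR_contig_7270_C3.1), a fibre of the extracellular matrix, had 1246 and 1301 at Aliso Beach and 1425 and 1941 at La Jolla, against 3996 and 3496 at Slide Ranch and 3905 and 4184 at Pigeon Point. The regions did not overlap and each site was close to its neighbour in the same region, with a log2 difference of -1.42 ± 0.21 (SE, limma adjusted p = 0.0129). A contig named mantle gene 8 (SR_contig_3907_C3.1) was at 18.5 to 66.5 in heated southern and 172 to 415 in heated northern libraries, with -2.48 ± 0.45 (SE, limma adjusted p = 0.0331), or -1.74 in the 12 libraries. Mantle gene 8 passed in 6 of the 16 fits that left out 1 library, and collagen alpha-1 in 12. Chorion peroxidase (SR_contig_21157) was at 225 to 342 in heated southern and 467 to 694 in heated northern libraries, with -1.15 ± 0.17 (SE, limma adjusted p = 0.0129). L-ascorbate oxidase (SR_contig_1037_C3.1), a GTPase of the IMAP family (SR_contig_92052), a lactase-phlorizin hydrolase (SR_contig_5363) and cartilage matrix protein (SR_contig_1828_C3.1) had log2 differences of -1.37, -1.15, -1.09 and -1.07 (limma adjusted p = 0.039, 0.0395, 0.0494 and 0.0311), and in each the 4 southern libraries were below the 4 northern ones. These 4 contigs passed in 6, 4, 3 and 7 of the 16 fits that left out 1 library. The contig named protein cbg24793 (SR_contig_359_C3.1) had 364 and 583 at Aliso Beach and 8.20 and 31.1 at La Jolla, against 2115 and 2175 at Slide Ranch and 1811 and 1473 at Pigeon Point. La Jolla was lowest and Aliso Beach lay between it and the north, and the log2 difference was -4.39 ± 0.59 (SE, limma adjusted p = 0.00784). An unnamed contig, SR_contig_2203_C3.1, was at 3.78 to 24.6 in heated southern and 41.9 to 242 in heated northern libraries, with -3.42 ± 0.61 (SE, limma adjusted p = 0.0311).

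An arginine kinase, a glutathione S-transferase, a cytochrome P450 2U1-like and a neuronal cell adhesion contig were also called lower. Arginine kinase (SR_contig_4078), which in molluscs regenerates ATP from phosphoarginine, had 2040.5 and 1907 at Aliso Beach and 1292 and 1875 at La Jolla, against 2616 and 2212 at Slide Ranch and 4407 and 4035 at Pigeon Point. No southern library reached a northern one, and the log2 difference was -0.86 ± 0.16 (SE, limma adjusted p = 0.034). It was the only called member of the 19 glycolysis and anaerobic energy contigs, 12 of which lay above 0, with a median log2 difference of 0.18. Of all tested contigs, 0.762% were higher and 0.402% lower over 16 libraries. With the term for the 4 libraries 5 of the 19 were higher and 1 lower, against 8.1% and 5.88% of all tested contigs. A glutathione S-transferase (SR_contig_23010) was at 73.9 to 105 in heated southern and 147 to 197 in heated northern libraries, with -0.94 ± 0.19 (SE, limma adjusted p = 0.0431), and cytochrome P450 2U1-like (SR_contig_13633) was at 488 to 925 in heated southern and 1119 to 1422 in heated northern libraries, with -0.93 ± 0.17 (SE, limma adjusted p = 0.0311). A neuronal cell adhesion contig (SR_contig_5000) was called at -1.05 ± 0.18 (SE, limma adjusted p = 0.026), although La Jolla heat 1 at 451 and Slide Ranch heat 2 at 450.1 overlapped.

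The list of transposable elements gave 2 lower and 0 higher contigs among 86, against 0.402% lower of all tested contigs, with a median log2 difference of -0.23, or 12 lower and 0 higher with the term for the 4 libraries and 9 and 0 in the 12 libraries, against 5.88% and 3.99% lower of all. A Tc1 transposase (SR_contig_578_C3.2), the enzyme that moves a DNA transposon, had 65.0 and 62.3 at Aliso Beach and 71.8 and 58.4 at La Jolla, against 227 and 194 at Slide Ranch and 198 and 137 at Pigeon Point. All southern values lay below the northern ones, with a log2 difference of -1.52 ± 0.23 (SE, limma adjusted p = 0.0131). A reverse transcriptase-like contig (SR_contig_6256_C3.1) was at 44.6 to 66.7 in heated southern and 93.7 to 157 in heated northern libraries, with -1.18 ± 0.22 (SE, limma adjusted p = 0.0345). The reverse transcriptase-like contig passed in 5 of the 16 fits that left out 1 library, and the Tc1 transposase in 11. Among 99 regulators of apoptosis and survival 0 were called over 16 libraries, but with the term 4 were higher and 21 lower, and in the 12 libraries 2 and 18, with a median of -0.31 over 16 libraries. Of all tested contigs, 8.1% were higher and 5.88% lower with the term, and 5.39% and 3.99% in the 12 libraries. A caspase contig (SR_contig_15943_C3.1), a protease of cell death and one of the 2 of this list with the smallest p, was at 36.3 to 67.7 in heated southern and 97.4 to 298 in heated northern libraries, with a log2 difference of -1.48 ± 0.32 (SE, limma adjusted p = 0.056, or 0.00623 with the term). In the list of 140 extracellular matrix and mucus contigs 1 was higher and 1 lower, and with the term 4 and 21, or 3 and 9 in the 12 libraries. In the immune and pattern recognition list of 156 contigs 0 were called, with the term 4 were higher and 16 lower, and in the 12 libraries 1 and 13. Their medians were -0.16 and -0.18.

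Lists of protein turnover, translation and respiration had positive medians. Of all tested contigs, 0.762% were higher over 16 libraries, 8.1% with the term for the 4 libraries and 5.39% in the 12. Of 175 ubiquitin and proteasome contigs 2 were higher and 0 lower over 16 libraries, 35 and 4 with the term, and 20 and 3 in the 12 libraries, with a median of 0.08. Proteasome activator subunit 3 (SR_contig_23561), a cap of the proteasome, had 2304 and 2080.4 at Aliso Beach and 1603 and 1350.0 at La Jolla, against 887 and 830.1 at Slide Ranch and 1038 and 1267 at Pigeon Point. All southern values exceeded the northern ones, with a log2 difference of 0.85 ± 0.16 (SE, limma adjusted p = 0.0345). Ubiquitin fusion degradation protein 1 (SR_contig_47280), which helps to pull tagged proteins out of complexes, was at 363 to 453 in heated southern and 154 to 282 in heated northern libraries, with 0.90 ± 0.16 (SE, limma adjusted p = 0.0331). Of 75 translation factors 1 was higher and 0 lower, or 16 and 2 with the term and 6 and 0 in the 12 libraries, with a median of 0.21. The cap-binding factor eIF4E (SR_contig_2183) was at 1601 to 2233 in heated southern and 1077 to 1157 in heated northern libraries, without overlap, and had 0.81 ± 0.14 (SE, limma adjusted p = 0.0311). Of 60 mitochondrial respiration contigs 0 were called over 16 libraries, 17 were higher and 0 lower with the term, and 11 were higher and 1 lower in the 12, with a median of 0.29 and 52 of 60 above 0. The gamma subunit of ATP synthase (SR_contig_7089) was at 2989 to 3809 in heated southern and 2000.3 to 2583 in heated northern libraries, without overlap, with 0.60 ± 0.14 (SE, limma adjusted p = 0.0718, or 0.00633 with the term). In controls the translation and respiration lists had medians of 0.18 and 0.27.

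The other lists held 0 to 3 calls each over 16 libraries, where 0.762% of all tested contigs were higher and 0.402% lower. In that fit, higher and lower contigs numbered 1 and 2 of 118 in cytochrome P450 and conjugation, 1 and 1 of 93 in lipid metabolism, and 0 and 1 of 51 antioxidant enzymes. They numbered 0 and 1 of 19 in glycolysis and anaerobic energy, 0 and 1 of 135 in ion and solute transport, 0 and 1 of 88 in the neural and receptor list, 1 and 0 of 44 ribosomal proteins and 0 and 1 of 79 mantle and shell markers. None of 15 stress transcription factors, 19 other chaperonins, 121 digestive gland markers, 13 blood markers and 6 markers of ingested or symbiotic organisms was called. With the term for the 4 libraries, which called 8.1% of all tested contigs higher and 5.88% lower, the counts were larger in most of these lists. There were 8 higher and 4 lower in cytochrome P450 and conjugation, 8 and 3 in lipid metabolism, 3 and 2 among antioxidant enzymes, and 5 and 1 in glycolysis, with 2 and 1 of the last in the 12 libraries. Ion and solute transport had 3 and 3, the neural and receptor list 2 and 5, ribosomal proteins 2 and 1, and mantle and shell markers 3 and 5. Stress transcription factors had 0 and 3, other chaperonins 3 and 0, digestive gland markers 4 and 6, blood markers 0 and 3 and ingested or symbiotic organisms 0 and 0. Testis markers had 4 and 0, and muscle markers 0 and 2. The medians of these 13 lists lay between -0.24 and 0.20, and those of the testis and muscle markers were 0.07 and -0.32.

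In 17 of the 168 called contigs the 2 sites of a region did not lie on the same side. In the 4 of them named by their small p, 1 site lay apart. An acyl-CoA-binding protein (SR_contig_4897), a carrier of activated fatty acids, had 9.83 and 8.74 at Aliso Beach and 3573 and 4546 at La Jolla, against 5245 and 4267 at Slide Ranch and 2597 and 4247 at Pigeon Point. Aliso Beach alone was low, and the averaged log2 difference of -4.28 ± 0.23 (SE, limma adjusted p = 8.59e-06) became 0.024 without that site. A subunit d of the V-type proton ATPase (SR_contig_14447), which acidifies compartments of the cell, had 6.05 and 2.19 at Aliso Beach and 199 and 164 at La Jolla, against 179.8 and 150.0 at Slide Ranch and 187 and 162 at Pigeon Point. Here too Aliso Beach alone was low, and the difference of -2.54 ± 0.31 (SE) was 0.094 without it. A LIM domain-binding protein 2-like contig (SR_contig_1832) had 389 and 371 at Aliso Beach and 689 and 393 at La Jolla, against 0 and 0 at Slide Ranch and 454 and 343 at Pigeon Point. It was listed at 0 at Slide Ranch alone, in its 2 heated libraries, so no fold is given. Collagen alpha-6 (SR_contig_234) had 7128 and 6368 at Aliso Beach and 18459.7 and 6606 at La Jolla, against 8805 and 8064 at Slide Ranch and 56.9 and 10.1 at Pigeon Point. Pigeon Point alone was low, La Jolla heat 1 was the highest, and the averaged log2 difference was 4.22 ± 0.52 (SE, limma adjusted p = 0.00459). All 4 contigs showed the same site apart in control libraries, with averaged log2 differences there of -4.26 for the acyl-CoA-binding protein, -2.89 for the ATPase subunit and 4.42 for collagen alpha-6.

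**Figure D4:**
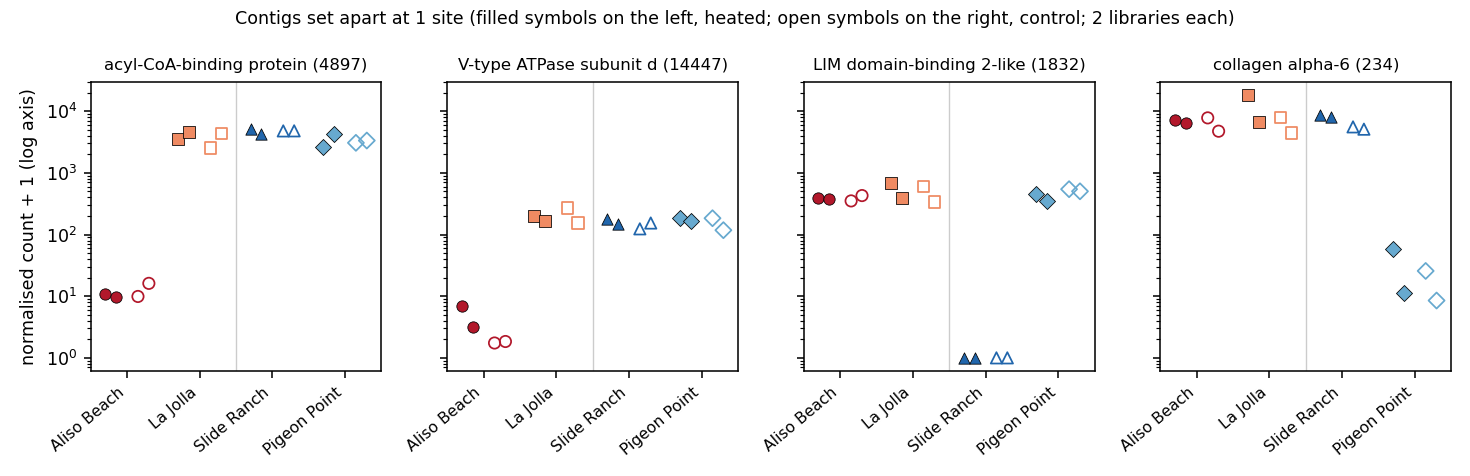
Normalised count + 1 on a log axis for 4 called contigs, with sites on the horizontal axis, southern sites on the left, heated libraries as filled and control libraries as open symbols. Aliso Beach lies apart for the acyl-CoA-binding protein and the V-type ATPase subunit, Slide Ranch for the LIM domain-binding contig and Pigeon Point for collagen alpha-6, in heated and control libraries alike.

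Single pairs of sites were compared in the same fit. Aliso Beach against Slide Ranch gave 118 called contigs (0.817%), La Jolla against Slide Ranch 95 (0.658%), Aliso Beach against Pigeon Point 41 (0.284%) and La Jolla against Pigeon Point 20 (0.138%). Within a region, Pigeon Point against Slide Ranch gave 37 (0.256%) and La Jolla against Aliso Beach 21 (0.145%). With the term for the 4 libraries the 6 counts were 1571 (10.9%), 593 (4.11%), 293 (2.03%), 134 (0.928%), 85 (0.588%) and 55 (0.381%), in the same order. The median absolute log2 difference over all tested contigs was 0.36 for Aliso Beach against Slide Ranch and 0.29 for La Jolla against Pigeon Point, and 0.46 and 0.53 for the pairs of Aliso Beach with Pigeon Point and of La Jolla with Slide Ranch, each of which sets 1 site with a library that stands apart against 1 without. Within a region, where that is also so, it was 0.42 in the south and 0.45 in the north. These comparisons share libraries, so their counts are not independent. Each count moved by over 1.5 times with single libraries left out. Aliso Beach against Slide Ranch ranged from 7 without Aliso Beach heat 1 to 171 without La Jolla heat 2. Aliso Beach against Pigeon Point ranged from 10 without either heated Aliso Beach library to 243 without Pigeon Point heat 2. La Jolla against Slide Ranch ranged from 11 without La Jolla heat 1 or Slide Ranch heat 1 to 1637 without La Jolla heat 2. La Jolla against Pigeon Point ranged from 6 without La Jolla heat 1 to 100 without La Jolla heat 2. Within regions, Pigeon Point against Slide Ranch ranged from 9 without Slide Ranch heat 2 to 161 without Pigeon Point heat 2. La Jolla against Aliso Beach ranged from 5 without Aliso Beach heat 1 to 320 without La Jolla heat 2.

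Of the 168 contigs called between regions, 58 were called in 0 of the 4 pairs of a southern and a northern site, 49 in 1, 58 in 2, 2 in 3 and 1 in all 4, and 24 were also called within a region, 14 between Pigeon Point and Slide Ranch and 10 between La Jolla and Aliso Beach. With the term, 25 contigs were called with the same sign in all 4 pairs. The difference of MCM3 was 2.50 for Aliso Beach against Slide Ranch and 2.96 for La Jolla against Slide Ranch, but 0.68 and 1.13 against Pigeon Point, and Pigeon Point minus Slide Ranch was 1.82 (limma adjusted p = 0.0496). For MCM2 the same 4 differences were 1.25, 1.27, 1.02 and 1.04, and Pigeon Point minus Slide Ranch was 0.23 (limma adjusted p = 0.641).

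The same regional difference was taken between control libraries, to ask whether it belonged to heated animals. Of the 168 contigs 165 (98.2%) had the same sign in controls, against 10161 of all 14444 (70.3%), and 34 of the 168 were called there as well, where 38 contigs (0.263%) were called in all. The control libraries are other libraries, but they share the sites and each contig's estimate of spread with the heated ones. The difference was larger in absolute size in heated libraries in 146 of the 168, which the choice of contigs by the heated difference favours. The median log2 difference of the 110 higher contigs was 1.14 in heated and 0.79 in control libraries, and that of the 58 lower ones -1.44 and -0.85. Vitellogenin had 2.01 in heated and 2.60 in control libraries, MCM3 1.82 and 1.30, MCM2 1.14 and 1.06, and the failed axon connections homolog -2.79 and -2.79. The replication list had a median of 0.71 in heated and 0.42 in control libraries, and the ovary and egg list 0.39 and 0.54. HSP90 had -0.55 in heated and 0.14 in control libraries.

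The test of the heated difference minus the control difference called 0 contigs in limma, with 197 (1.36%) at an unadjusted p under 0.05, and edgeR and DESeq2 also called 0. With the term for the 4 libraries 0 were called and 829 (5.74%) had an unadjusted p under 0.05, and in the 12 libraries 2 were called (0.0138%). Both were heat shock contigs (SR_contig_18769_C3.1, limma adjusted p = 0.000865, and small heat shock protein 26, limma adjusted p = 0.0117). The 4 named contigs with the smallest p of this test are given by their values. The chemotaxin-like contig was at 384 to 894 in heated southern and 33.7 to 209 in heated northern libraries, and at 339.8 to 619 in control southern and 306 to 868 in control northern libraries. Its log2 differences were 2.44 in heated and -0.37 in control libraries (unadjusted p = 0.000744, limma adjusted p = 1). The glycoside hydrolase had 1.83 and -0.38 (unadjusted p = 0.00173, limma adjusted p = 1) and mantle gene 8 -2.48 and -0.30 (unadjusted p = 0.0057, limma adjusted p = 1). The unnamed contig SR_contig_18249 had 2.03 and 1.05 (unadjusted p = 0.00888, limma adjusted p = 1). The 3 called contigs with opposite signs in controls were the chemotaxin-like contig, the glycoside hydrolase and a scavenger receptor class F contig (SR_contig_93658), chosen after its values were seen, with 1.79 in heated and -0.35 in control libraries. The heated Pigeon Point libraries of that receptor contig had normalised counts of 0 and 1.01.

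**Figure D5:**
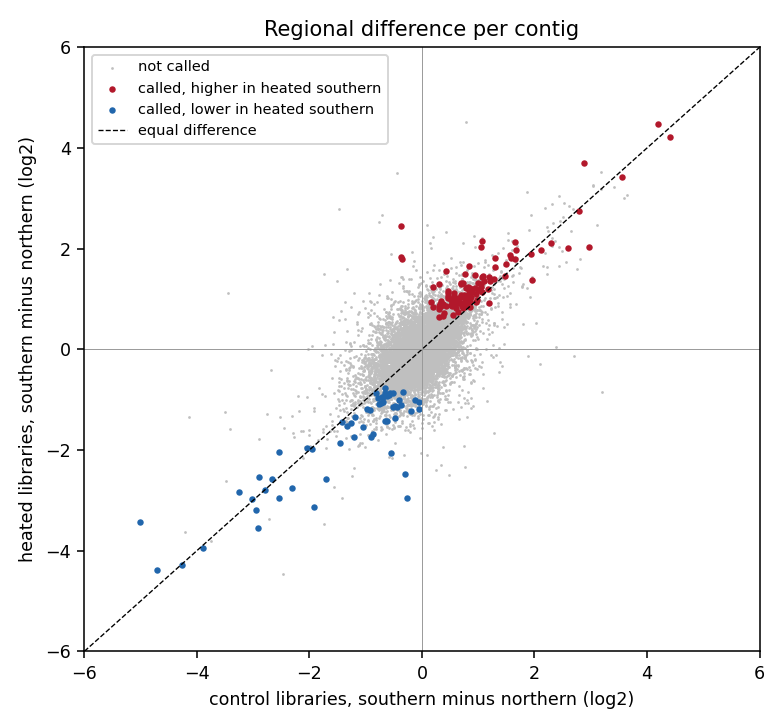
Log2 difference, southern minus northern, of each tested contig in control libraries on the horizontal and in heated libraries on the vertical axis, with called contigs in red where higher and in blue where lower in heated southern libraries. Of the 168 coloured points 165 lie in the quadrants of equal sign, and 146 are further from 0 on the heated axis than on the control axis.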

How the data were processed

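RNA was extracted from frozen whole animals, per the labels' protocols, and 100-base reads were sequenced from 16 libraries, 2 for each of 4 sites and 2 treatments. The deposited table holds 1 signal value per contig and library, a normalised read count that the authors made by dividing read counts by a size factor. CASAVA and DESeq are named, per the submitters' processing notes, without roles. For the assembler, mapper and annotation, names were not given in the sources used here. All values (100%) were whole multiples of 1 step per library within 0.01 reads, which recovered 17594009 to 26103215 reads per library. Of 15903 contigs, 6599 have no gene name. Contig lengths were not used here, so levels were compared only within a contig. No 2 libraries of a group agreed within sampling noise in a chi-square test of their reads.

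Libraries were grouped by the site and treatment in their labels. log2(normalised count + 1) of the 14444 contigs with a mean of at least 10 entered a linear model in limma 3.58.1, run in R 4.3.3, with a mean-variance trend and 8 groups of 2 libraries, which share 1 estimate of spread. The regional difference is the mean of both southern sites minus the mean of both northern sites, with Benjamini-Hochberg adjustment over all contigs tested. The recovered reads were tested with the quasi-likelihood test of edgeR 4.0.16, which called 154 contigs, and with DESeq2 1.42.0. Alternatives changed the pseudocount (0.5 or 5), the filter (none or 50), the scaling, the libraries in the fit, and the treatment of sites, of replicate numbers and of the 4 libraries that stand apart. A term for these 4 libraries is possible because each region and each treatment holds 2 of them. Only the limma fit over 16 libraries was checked on simulated counts. The simulated means differed between libraries only for contigs changed in heated southern ones, so sites and libraries that stand apart were not simulated.

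Contigs were named by a rule: up to 12 each way with an informative name, a mean of at least 50 in heated libraries, both sites of a region on the same side and the largest called differences, up to 6 more each way from the fit with the term, the 2 smallest p of each gene list, up to 2 each way without an informative name, up to 4 called contigs whose sites disagree, and 4 with the smallest p for the difference between treatments. The comparison, the rule and the lists were chosen with earlier results of these data known. The lists match words in the contigs' names, and wrong matches were corrected after the members were read. Figures were drawn with Python 3.11.15 and matplotlib 3.10.9.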

Additional observations from a re-analysis of the deposited data

Results flagged for a closer look

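In each region, 4 heated libraries allow a check of whether 1 of them lies far from the rest. Of 242 groups of 4 values of named contigs, 23 held such a library (9.50%). The check flags about 1 in 20 groups of 4 independent values from 1 population. These groups mix sites, share the same libraries and come from chosen contigs, so the 9.50% cannot be set against that rate. The library was La Jolla heat 1 in 13 cases, Pigeon Point heat 2 in 5, Pigeon Point heat 1 in 4 and Aliso Beach heat 1 in 1.

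La Jolla heat 1 was far above the other 3 southern libraries for MCM6 (SR_contig_20491), at a normalised read count of 1357 against 793 to 827, for MAD2 (SR_contig_7367), at 1406 against 635 to 708, and for CKS1 (SR_contig_4138), at 7223 against 4120.3 to 4305. It was also far above them for a small heat shock protein (SR_contig_10392_C3.1), at 55838 against 29771 to 31831, and for a heat shock contig of no stated class (SR_contig_31099), at 4141 against 2161 to 2365. Collagen alpha-6 (SR_contig_234) was at 18459.7 against 6368 to 7128, and a collagen triple helix repeat contig (SR_contig_40574) at 1189 against 719 to 736. The LIM domain-binding contig (SR_contig_1832) was at 689 against 371 to 393, and a riboflavin biosynthesis contig (SR_contig_44734) at 953 against 344 to 394. SR_contig_83 was at 19360100 against 463572 to 667941. La Jolla heat 1 was far below the other southern libraries for the GINS subunit PSF3 (SR_contig_3880_C3.1), at 20.5 against 78.6 to 96.5, for a coiled-coil contig named TACC2-like (SR_contig_49417), at 98.4 against 327 to 415, and for a regulatory subunit of protein phosphatase 6 (SR_contig_1605_C3.2), at 6.15 against 47.0 to 65.4.

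Among the northern libraries, Pigeon Point heat 2 was far above the other 3 for MCM4 (SR_contig_9680_C3.1), at 68.6 against 36.7 to 39.9, for the B subunit of DNA polymerase alpha (SR_contig_88646), at 468 against 259 to 279.6, and for origin recognition complex subunit 3 (SR_contig_68498), at 306 against 169 to 182. It was also above them for a cytochrome c oxidase subunit (SR_contig_4619), at 7684 against 4903 to 5232, and below them for HSP70 SR_contig_5144, at 65095 against 82036 to 84336. Pigeon Point heat 1 was far above the others for a small heat shock protein (SR_contig_1049_C3.1), at 341300 against 171095 to 181342, for Krueppel-like factor 15 (SR_contig_7368), at 2245 against 1889 to 1927, and for SR_contig_83, at 6288900 against 656132 to 757951. It was far below them for ribosomal protein L35a (SR_contig_3139), at 11659 against 19668 to 21799.8. In the south, Aliso Beach heat 1 was far above the others for carboxypeptidase B (SR_contig_2666), at 6144 against 4992 to 5134.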

How the results depend on the processing

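Counts are given in the order of contigs higher, contigs lower and called contigs with both sites of a region on the same side, which were 110, 58 and 151 in limma over 16 libraries. They were 507, 283 and 725 with DESeq2, 5, 4 and 6 with only the 8 heated libraries, 15, 7 and 22 with site as a random effect, 778, 576 and 1283 without the 4 libraries that stand apart and 1170, 849 and 1620 with a term for them. Without Aliso Beach they were 2, 4 and 6, without La Jolla 61, 77 and 134, without Slide Ranch 6, 3 and 8 and without Pigeon Point 243, 79 and 317. The term in edgeR gave 1135, 788 and 1553, and a term for 2 libraries within the 8 heated ones gave 1132, 808 and 1502, both chosen after seeing the data. With edgeR, pseudocounts of 0.5 and 5, no filter, a minimum mean of 50 and TMM scaling, which shifted the median difference by 0.015, these counts moved by less than 1.5 times. With each library left out in turn, the counts ranged from 11 to 172 higher, from 9 to 179 lower and from 15 to 292 on the same side, and, leaving them out of the fit with the term (an alternative chosen after seeing the data), from 575 to 1278 higher and from 395 to 1312 lower.

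The replicate numbers in the labels were entered as a block in an alternative fit, which gave counts of 183, 99 and 259 for the regional comparison. The deviations of same-numbered libraries correlated between 0.59 and 0.69 among the Pigeon Point and La Jolla groups and between -0.12 and 0.17 in all other pairs of groups, so the numbers were not taken to pair the libraries. With the block, the site pairs below had 209, 60, 192, 33, 46 and 28 calls.

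The site pairs are given in the order Aliso Beach over Slide Ranch, Aliso Beach over Pigeon Point, La Jolla over Slide Ranch, La Jolla over Pigeon Point, Pigeon Point over Slide Ranch and La Jolla over Aliso Beach, with 118, 41, 95, 20, 37 and 21 calls in limma over 16 libraries. They had 63, 28, 58, 15, 19 and 15 calls with edgeR, 653, 325, 591, 106, 135 and 94 with DESeq2, 3, 8, 5, 4, 5 and 1 with only the 8 heated libraries, 129, 29, 90, 15, 26 and 9 with a minimum mean of 50, 2561, 286, 403, 43, 99 and 69 without the 4 libraries and 1571, 293, 593, 134, 85 and 55 with the term. The term in edgeR gave 1618, 304, 575, 104, 88 and 55 and the term for 2 libraries within the 8 heated ones 1533, 108, 287, 96, 50 and 55, both chosen after seeing the data. With another site left out, the counts were 206 without Pigeon Point and 166 without La Jolla for Aliso Beach over Slide Ranch, 12 without Slide Ranch and 55 without La Jolla for Aliso Beach over Pigeon Point, 144 without Pigeon Point and 14 without Aliso Beach for La Jolla over Slide Ranch. They were 5 without Slide Ranch and 3 without Aliso Beach for La Jolla over Pigeon Point, 10 without Aliso Beach and 39 without La Jolla for Pigeon Point over Slide Ranch, 11 without Slide Ranch and 22 without Pigeon Point for La Jolla over Aliso Beach. With each library left out, the ranges were 7 to 171, 10 to 243, 11 to 1637, 6 to 100, 9 to 161, 5 to 320 in the same order. The heated minus control difference had 0 calls in each fit with 1 library left out and 2 without the 4 libraries that stand apart. The cause of these shifts was not tested.

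Of the values of named contigs under these settings, 3153 kept their direction and their side of the threshold, 254 newly passed, 688 no longer passed and 18 changed sign. Without the Aliso Beach site the log2 difference was 0.14 for small HSP SR_contig_1049_C3.1, 0.020 for heat shock contig SR_contig_31099, 0.094 for the V-type ATPase subunit, 0.024 for the acyl-CoA-binding protein, 0.026 for HSP70 SR_contig_525 and -0.21 for MCM4. Without the Pigeon Point site it was 0.20 for SR_contig_993_C3.2 and -0.11 for the scavenger receptor. Without the La Jolla site it was -0.17 for SR_contig_44734, 0.0082 for PSF3 and -1.31 for SR_contig_83. With 1 library left out in turn, the difference ranged from -0.088 to 0.55 for SR_contig_44734, from -0.96 to 0.13 for PSF3, from -1.08 to 1.35 for SR_contig_83 and from -0.31 to 0.022 for HSP70 SR_contig_525, and it changed sign without La Jolla heat 1 in SR_contig_44734, PSF3 and SR_contig_83 and without Pigeon Point heat 1 in SR_contig_525. SR_contig_83 was at -0.26 without the 4 libraries, -0.68 without Pigeon Point heat 2 and -0.62 without the Slide Ranch site. Log2 differences of contigs with few reads are understated by the pseudocount, and contigs with a mean under 10 (1459 in number) were not tested. With all libraries in the fit, the term for the 4 libraries left the regional log2 differences as they were and changed only their spread. It can also shift the differences of site pairs in which only 1 site holds such a library.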
